A study of Mus musculus with 8 samples.

Results

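Translation initiation and elongation factors are the proteins that bring the ribosome to a messenger RNA, choose the start codon and move the ribosome along the reading frame. Their genes were taken from the GENCODE M21 mouse annotation as all protein-coding genes whose symbol starts with Eif1 to Eif6, Eef1 or Eef2, leaving out the Eif2ak kinases and pseudogenes named as such. The rule gave 63 of the 50143 gene IDs counted, and 58 of the 63 had enough reads to be tested. This rule used gene names alone and no measured value, though the genes to study were chosen with earlier results of these data known.

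The RNA came from 8 tumours grown in the fourth mammary gland of female C57BL/6 mice. Tumour cells were of Py230, an established mouse line of breast adenocarcinoma. The obese mice, which gave 4 tumours, were fed a high-fat diet with 60% of calories from fat (5.1 kcal/g) and were 35% heavier on average, and the lean mice, which gave the other 4, were fed a regular diet with 10% of calories from fat (3.6 kcal/g). All the mice had been ovariectomized at 6 weeks of age, started their diet 2 weeks after surgery, had eaten it for 6 weeks when the cells were injected, and gave their tumours at day 56. Every tumour thus grew from a single cell line in hosts without ovaries, and whole tumour tissue was sequenced, host cells included. The comparison asks which tumour genes differ between obese and lean hosts.

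As background, initiation starts when the small ribosomal subunit, with eIF1, eIF1A and eIF3, takes up the ternary complex of eIF2, GTP and initiator methionyl-tRNA. eIF4F, made of the cap-binding protein eIF4E, the scaffold eIF4G and the helicase eIF4A, recruits that subunit to the 5′ cap, and eIF5 and eIF5B lead to joining of the large subunit. In elongation, eEF1A delivers aminoacyl-tRNAs and eEF2 moves the ribosome by a codon. Signalling through mTORC1, often active in breast tumours, frees eIF4E from its binding proteins and raises translation of TOP mRNAs, which begin with a pyrimidine tract and encode ribosomal proteins and several of these factors.

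Most of these genes had more RNA in the tumours of obese mice. Of the 58 tested, 39 rose, 6 fell and 13 did not pass an adjusted p of 0.05 (edgeR's quasi-likelihood test, adjusted by Benjamini-Hochberg over 14887 genes). Among all tested genes 30.9% rose and 28.4% fell by the same rule, and 59.2% were called in either direction. The median log2 change, obese minus lean, was 0.61 for the 58 genes and −0.04 for all tested genes. The groups did not overlap in 37 genes that were higher in every tumour of an obese mouse and in 6 that were lower, against 28.9% and 28.1% of all tested genes (57% in either direction). With upper-quartile in place of TMM scaling, which moved the median of all genes by −0.21, 32 of the factor genes rose and 9 fell, and rises made up 41.2% of all calls against 52.1%. At least 2-fold rises were called for 16 of the 58 genes, against 17.2% of all tested genes, and at least 2-fold falls for 3, against 21.3%. Lean replicates 1 and 4 were the lean tumours with the most skeletal muscle RNA. Without them, 25 of 59 tested factor genes rose and 3 fell, a choice made after the data were seen that leaves 2 lean tumours. With all tumours 4598 of 14887 genes rose and 4221 fell, and without these 2 tumours 2766 of 15344 rose and 2365 fell. The calls that ended there were those of Eif1ad, Eif2s3x, Eif2b3, Eif2b5, Eif3g, Eif3k, Eif3l, Eif3m, Eif4a1, Eif4e, Eif4e2, Eif4g1, Eif4g2 and Eif5 among the rises and of Eif2b4, Eif4ebp3 and Eef1akmt3 among the falls, each with the same sign as before and edgeR adjusted p-values of 0.0503 to 0.3996. Their log2 changes there ran from 0.18 to 0.79 for the rises and from −1.32 to −0.37 for the falls, and the median over the tested factor genes was 0.56, against 0.61 with all tumours. In bulk tissue, more cells of a type and more RNA per cell cannot be told apart.

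**Figure D1:**
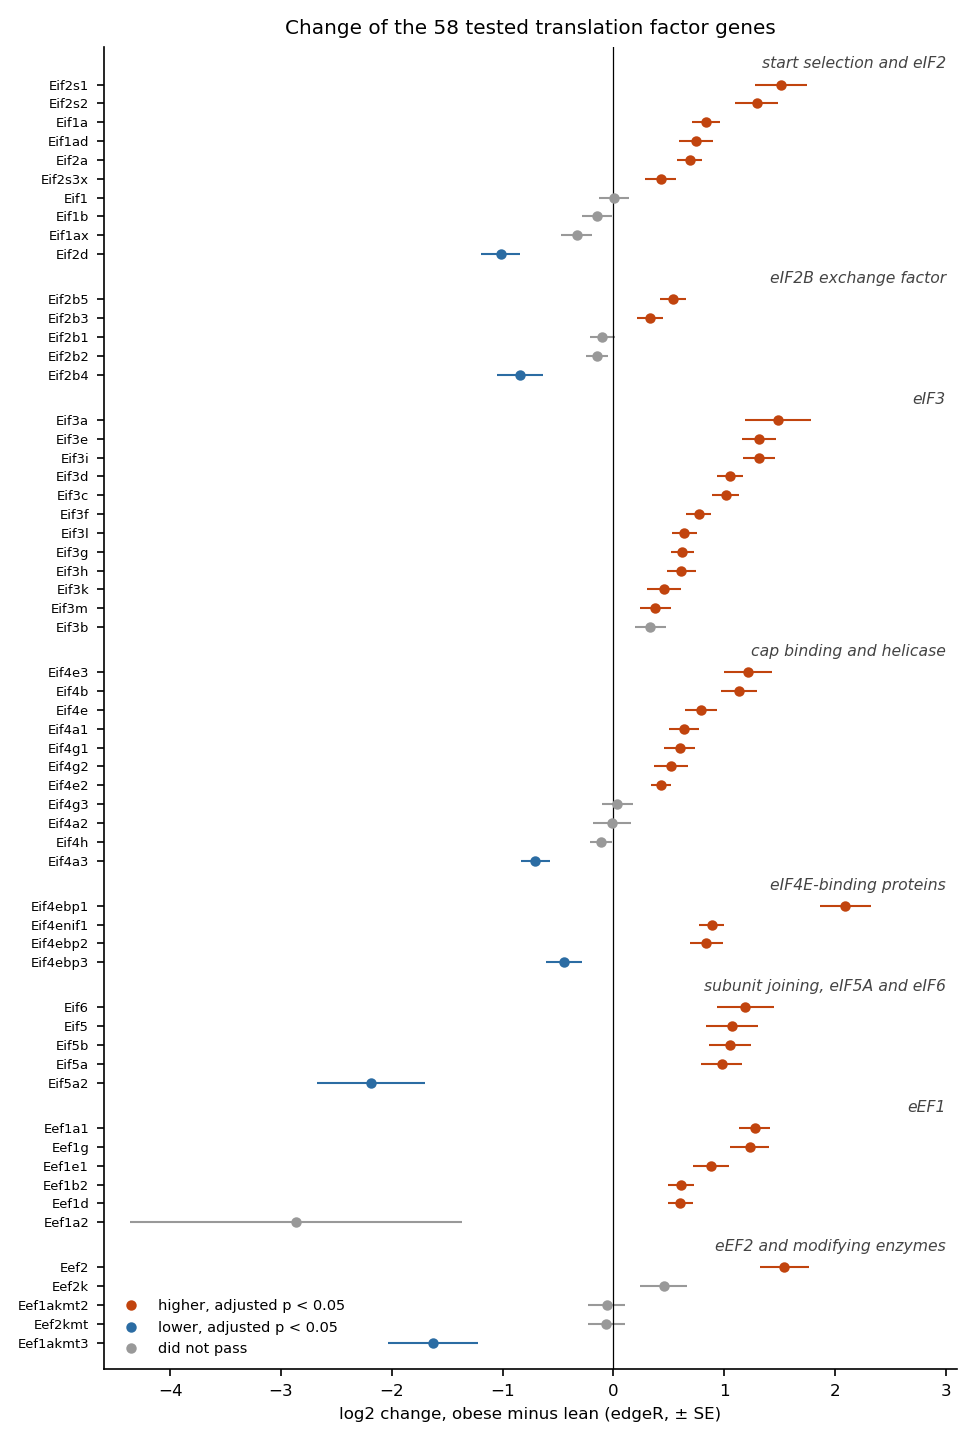
The log2 change of each of the 58 tested genes, obese minus lean, from edgeR (points) with its standard error (bars), grouped by role and sorted within a role; colour marks genes that rose, fell or did not pass an adjusted p of 0.05. All 12 tested eIF3 genes lie above 0, while the eIF2B genes and the eEF2 group lie on both sides of it.

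Together the 63 genes took 3.52%, 3.79%, 3.495% and 3.55% of all counts in obese replicates 1 to 4, against 2.19%, 2.17%, 1.99% and 1.82% in lean replicates 1 to 4. Every tumour of an obese mouse was above every tumour of a lean mouse. Eef1a1 alone took 1.25%, 1.46%, 1.501% and 1.304% of counts in obese replicates 1 to 4 and 0.730%, 0.677%, 0.622% and 0.561% in lean replicates 1 to 4. Without Eef1a1, the other genes took 2.27%, 2.33%, 1.99% and 2.24% of counts in tumours of obese mice and 1.46%, 1.49%, 1.37% and 1.26% in those of lean mice, so the separation did not rest on that gene. These shares use no scaling factor between libraries.

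Libraries held 25.7 to 66.7 M counts, and no pair was a duplicate. The tumours differed in cell type markers, and obese replicate 3 lay apart from the other tumours of obese mice: on the first principal component of the 1000 most variable genes (88.6% of variance) it had −12.9, the other 3 had 96.5 to 136, and tumours of lean mice had −93.7 to −70.2. The summed level of 9 mammary epithelial markers was 65.8, 288, 789 and 247 CPM (TMM-scaled counts per 1 M counts) in obese replicates 1 to 4, against 2995, 2081, 2149 and 2078 CPM in lean replicates 1 to 4, and 5 of the 9 fell while 0 rose. The luminal keratin Krt18 had 0.124, 0.115, 128 and 4.32 CPM in tumours of obese mice, and the basal keratins Krt14 and Krt5 were at 0 in obese replicate 1, so these epithelial markers were at or near 0 in some tumours of obese mice. For 8 mesenchymal markers the sum was 4551 to 11527 CPM in tumours of obese mice against 1098 to 1613 CPM in those of lean mice (4 rose, 2 fell). Vim made up most of it in tumours of obese mice, at 5271, 9733, 3988 and 6640 CPM, against 728, 541, 478 and 369 CPM. Prrx1, Pdgfra and Pdgfrb rose too, Dcn and Lum fell, and Col1a1 and Col1a2 did not pass. For 5 macrophage markers the sum was 727 to 869.9 against 318 to 527 CPM (3 rose, 1 fell). For 4 cycling-cell markers it was 1003 to 1500 against 323 to 794 CPM (3 rose). Top2a was its largest part in tumours of obese mice (661, 689, 554 and 886 CPM), and Mki67 averaged 106 against 157 CPM and did not pass. For 5 T cell markers the sum was 13.96 to 39.97 against 52.1 to 128 CPM (4 fell, and Trac was at 0 in all tumours). For 4 B cell markers it was 2.48 to 8.90 against 22.2 to 52.3 CPM (4 fell). For 5 adipocyte markers it was 21.6 to 399 against 83.4 to 369 CPM (0 rose, 0 fell) and for 4 endothelial markers 105 to 153 against 107 to 239 CPM (1 fell). The part of these differences in the results that follow was not tested. Without obese replicate 3, 39 of the 58 tested factor genes rose and 6 fell. Of these calls, 37 rises and 5 falls were also called with all tumours. Among all 15184 genes tested without that tumour, 4726 rose and 5107 fell.

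Among the genes of start-codon selection and ternary complex formation, 6 of 10 tested rose, 1 fell and 3 did not pass, with a median log2 change of 0.56. The shares of all tested genes were 30.9% for rises, 28.4% for falls and 59.2% for calls in either direction. Eif2s1 (ENSMUSG00000021116, chromosome 12, 78861819 to 78887010, on GRCm38 as all gene coordinates here) encodes eIF2α, the subunit whose phosphorylation slows initiation under stress. It had 283, 425, 404 and 515 CPM in tumours of obese mice, against 139, 194, 123 and 114 CPM in those of lean mice. The lowest tumour of an obese mouse was above the highest tumour of a lean mouse, and the gene rose by 1.51 ± 0.23 on the log2 scale (edgeR adjusted p = 0.00153). Eif2s2, for eIF2β, had 272, 244, 252 and 277 CPM in tumours of obese mice, against 95.9, 152, 98.2 and 80.97 CPM in those of lean mice. Its groups were also apart, with a log2 change of 1.29 ± 0.20 (edgeR adjusted p = 0.00143). The X-linked Eif2s3x, for the GTP-binding eIF2γ, had 52.5, 51.5, 54.9 and 53.9 CPM in tumours of obese mice, against 45.3, 45.2, 35.99 and 31.7 CPM in those of lean mice. The 3 eIF2 subunit genes therefore rose by unequal amounts, and the rise of Eif2s3x was the smallest at 0.43 ± 0.14 (edgeR adjusted p = 0.030). Its call ended without obese replicate 4 or lean replicates 3 or 4, left out singly (log2 change 0.34 to 0.43, adjusted p 0.0627 to 0.0916), and also with upper-quartile or library-size scaling, a 1 CPM filter and GC and length offsets, its adjusted p running from 0.00156 to 0.203 over all the alternatives. Its Y-linked copy Eif2s3y had 0 counts in every tumour.

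Eif1, the factor that keeps the scanning ribosome from settling on a poor start codon, had 351, 249.7, 301 and 318 CPM in tumours of obese mice, against 329, 307, 263 and 317 CPM in those of lean mice. It was the most abundant gene of this group by the mean over all 8 tumours, while in tumours of obese mice alone Eif2s1 had the higher mean. Its groups lay on top of each other, with a log2 change of 0.00 ± 0.13 (edgeR adjusted p = 0.982). Its paralog Eif1b had 30.2, 26.5, 34.7 and 36.9 CPM in tumours of obese mice, against 35.2, 33.3, 34.6 and 38.98 CPM in those of lean mice, and did not pass either (−0.15, edgeR adjusted p = 0.367). Of the genes for eIF1A, Eif1a rose to 254 ± 19.9 CPM in tumours of obese mice against 143 ± 19.3 CPM in those of lean mice (SD, n = 4 each; log2 change 0.83 ± 0.13, edgeR adjusted p = 0.00153), whereas the X-linked Eif1ax averaged 84.6 ± 13.3 against 106 ± 11.5 CPM (−0.33 ± 0.14, edgeR adjusted p = 0.072). Eif2a, whose product can carry initiator tRNA to some messages without eIF2, and Eif1ad, named for its eIF1A-like domain, rose by 0.69 ± 0.11 and 0.74 ± 0.15. Both overlap a gene on the other strand (Serp1 and Banf1), and the strand setting used in counting is not given in the sources used here, so shared reads are possible.

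Eif2d fell. Its product delivers tRNA to the ribosome without GTP and takes part in recycling and reinitiation. The gene (ENSMUSG00000026427, chromosome 1, 131153181 to 131187658) had 42.6, 39.2, 66.8 and 44.4 CPM in tumours of obese mice, against 102, 98.2, 97.7 and 93.2 CPM in those of lean mice. Lean tumours stayed within a narrow band, and the highest tumour of an obese mouse, replicate 3, was still below it. The log2 change was −1.02 ± 0.18 (edgeR adjusted p = 0.00249). Rassf5 lies on its opposite strand.

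eIF2B, the exchange factor that reloads eIF2 with GTP and is blocked by phosphorylated eIF2α, has 5 subunits. Of their genes 2 rose, 1 fell and 2 did not pass, with a median log2 change of −0.10. Among all tested genes 59.2% were called, 30.9% as rises and 28.4% as falls, so this number called is near that background. Eif2b5, the catalytic ε subunit and the most abundant of the 5, had 187, 147, 171 and 186 CPM in tumours of obese mice, against 132, 123, 112 and 109.95 CPM in those of lean mice. The groups did not overlap (log2 change 0.54 ± 0.12, edgeR adjusted p = 0.00669), though the adjusted p was 0.051 with upper-quartile scaling and 0.0679 without lean replicates 1 and 4, in a range of 0.00019 to 0.0679 over the alternatives. Eif2b4, the δ regulatory subunit (ENSMUSG00000029145, chromosome 5, 31187558 to 31193430), had 50.04, 36.5, 57.9 and 38.6 CPM in tumours of obese mice, against 94.4, 59.2, 80.2 and 95.3 CPM in those of lean mice. Each tumour of an obese mouse was lower than each tumour of a lean mouse, lean replicate 2 coming closest, and the log2 change was −0.85 ± 0.21 (edgeR adjusted p = 0.0102). Snx17 overlaps it on the opposite strand. Eif2b3 (γ) rose by 0.33 ± 0.12 (edgeR adjusted p = 0.038) with overlapping groups, and its call ended without obese replicates 1, 3 or 4 or lean replicates 1, 3 or 4, left out singly (log2 change 0.29 to 0.34, adjusted p 0.0562 to 0.119) and in 6 other alternatives, over all of which its adjusted p was 0.00161 to 0.40. Eif2b1 (α) and Eif2b2 (β) had log2 changes of −0.10 and −0.15, neither past the threshold.

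eIF3 is the largest initiation factor, a multi-subunit platform that holds the small subunit, eIF4G and the other factors together. Of its 14 genes 12 were tested, and 11 of them rose, 0 fell and Eif3b alone did not pass, with a median log2 change of 0.70. By the same rule 30.9% of all tested genes rose and 28.4% fell. Counts per kilobase of exon averaged from 75.5 CPM per kb for Eif3a to 369.9 for Eif3h in tumours of obese mice. In those of lean mice they ran from 26.9 for Eif3a to 242 for Eif3h. The length used joins the exons of all annotated transcripts, 6719 bases for Eif3e and 1612 for Eif3h. With means of 546 and 596 CPM in tumours of obese mice, Eif3e and Eif3h thus had 81.3 and 369.9 CPM per kb. Levels of different subunit genes can therefore not be compared closely on this scale.

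The largest subunit gene, Eif3a (ENSMUSG00000024991, chromosome 19, 60761117 to 60790658), had 483, 903, 391 and 859 CPM in tumours of obese mice, against 238, 296, 203 and 204 CPM in those of lean mice. Obese replicates 2 and 4 were far above obese replicates 1 and 3, and all 4 were above the lean tumours (log2 change 1.49 ± 0.30, edgeR adjusted p = 0.00439). Eif3e had 489, 571, 559.8 and 566 CPM in tumours of obese mice, against 207, 280.4, 210.3 and 179 CPM in those of lean mice. This gene, known in the mouse as the MMTV integration site Int6, varied little within the obese group and rose by 1.32 ± 0.15 (edgeR adjusted p = 0.000506). Eif3i, a WD-repeat subunit, had 468, 345, 355 and 353 CPM in tumours of obese mice, against 179, 145, 149 and 139.6 CPM in those of lean mice, with obese replicate 1 above the other 3 tumours of its group and no overlap with the lean group (1.31 ± 0.14, edgeR adjusted p = 0.000398). Eif3h, the most abundant by mean CPM over all 8 tumours, though below Eif3a in tumours of obese mice alone, had 622, 578, 649 and 536 CPM in tumours of obese mice, against 444, 334, 424 and 357 CPM in those of lean mice. It rose by 0.61 ± 0.13 (edgeR adjusted p = 0.00576).

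Of the other subunit genes, Eif3d, whose product can itself bind the cap of some messages, rose by 1.06 ± 0.12 and Eif3c, part of the core, by 1.01 ± 0.12; Eif3f, Eif3l and Eif3g rose by 0.77, 0.64 and 0.62. The smallest rises were those of Eif3k (0.45 ± 0.15, edgeR adjusted p = 0.0329) and Eif3m (0.38 ± 0.14, edgeR adjusted p = 0.0455). The call of Eif3k ended without obese replicates 1 or 4 or lean replicates 2, 3 or 4, left out singly (log2 change 0.36 to 0.49, adjusted p 0.0523 to 0.0869) and in 4 other alternatives (adjusted p 0.00447 to 0.217 over all). That of Eif3m ended without obese replicates 2, 3 or 4 or lean replicates 1, 3 or 4, left out singly (log2 change 0.31 to 0.42, adjusted p 0.066 to 0.112) and in 6 other alternatives (adjusted p 0.00277 to 0.359 over all). Eif3b, a core scaffold subunit, had 505, 421, 375 and 479 CPM in tumours of obese mice, against 359.6, 409.8, 337 and 308 CPM in those of lean mice, with overlapping groups and a log2 change of 0.33 ± 0.14 (edgeR adjusted p = 0.0684). Eif3j1 had 67 counts over the 8 tumours and its near-identical copy Eif3j2 had 0; reads shared by such copies may have gone uncounted, so no level is given for eIF3j.

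**Figure D2:**
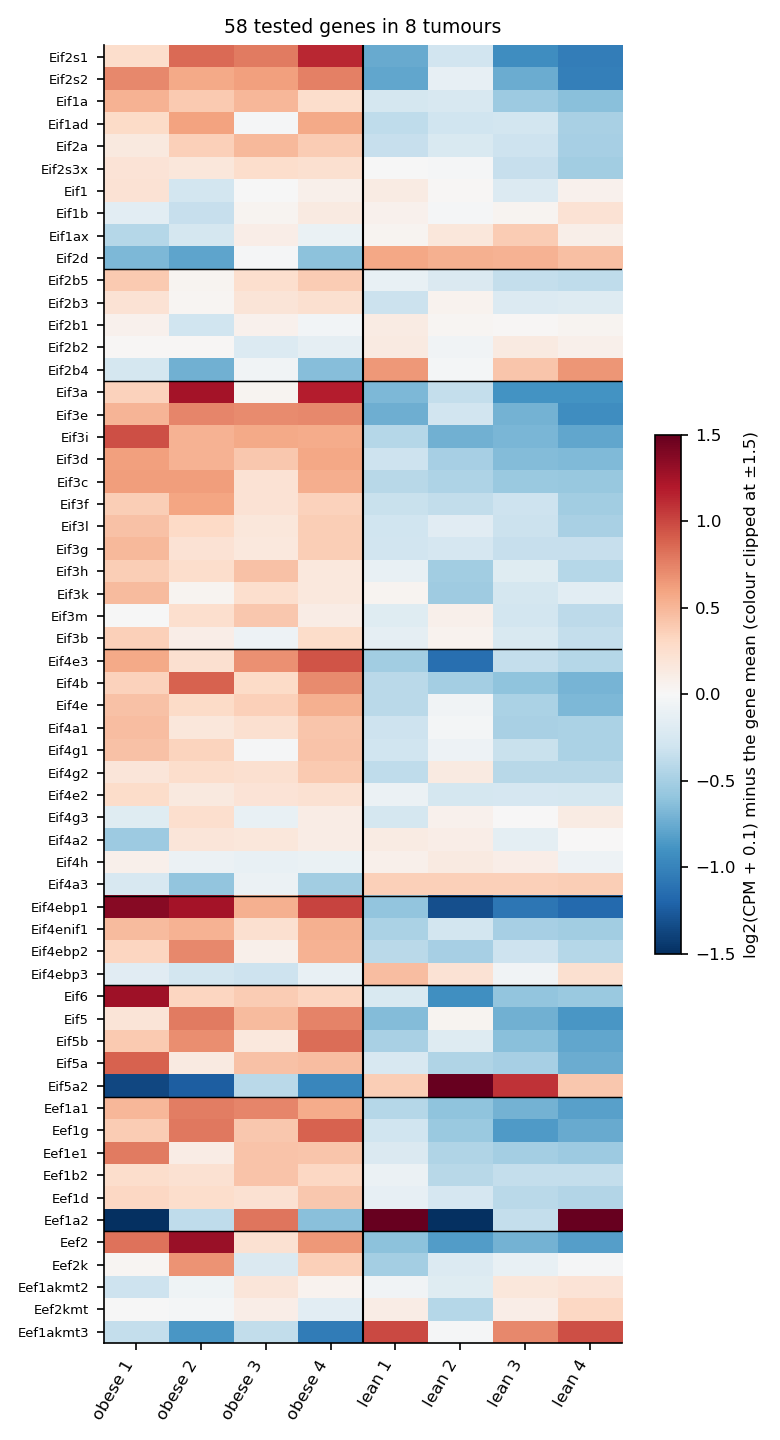
Each tested gene (rows, by role) in each tumour (columns, obese replicates 1 to 4 left of lean replicates 1 to 4), as log2(CPM + 0.1) minus the gene's mean over the 8 tumours; red is above and blue below the gene's mean, and the colour is clipped at ±1.5. Most rows are red at left and blue at right, Eif2d, Eif2b4, Eif4a3, Eif4ebp3, Eif5a2 and Eef1akmt3 run the other way, and Eef1a2 follows single tumours.

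Of the 11 tested genes grouped as cap binding and unwinding, 7 rose and 1 fell, against 30.9% and 28.4% of all tested genes. The other 3 did not pass, and the group's median log2 change was 0.52. The fall was that of Eif4a3, which is in this group by its name. Eif4g2 (DAP5), an eIF4G relative that lacks the eIF4E-binding region, was the most abundant by mean CPM over all 8 tumours, though just below Eif4b in tumours of obese mice alone. It had 1083, 1153, 1129.6 and 1251 CPM in tumours of obese mice, against 733, 1049, 718 and 717 CPM in those of lean mice. Lean replicate 2 stood far above the other lean tumours and close to the obese group. The log2 change was 0.52 ± 0.15 (edgeR adjusted p = 0.0201), and the call ended without obese replicate 4 or lean replicates 1, 3 or 4, left out singly (log2 change 0.47 to 0.49, adjusted p 0.0522 to 0.0698) and with upper-quartile or library-size scaling or GC and length offsets (adjusted p 0.000109 to 0.222 over all the alternatives). The scaffold Eif4g1 had 749.8, 695, 544 and 739.6 CPM in tumours of obese mice, against 448, 522, 439 and 396 CPM in those of lean mice, and rose by 0.60 ± 0.14 (edgeR adjusted p = 0.00919). Its paralog Eif4g3 had 153, 206, 161 and 188 CPM in tumours of obese mice, against 144, 182, 175 and 189 CPM in those of lean mice, with groups that overlapped (0.04 ± 0.14, edgeR adjusted p = 0.831).

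The cap-binding protein gene Eif4e had 205, 184, 194 and 218 CPM in tumours of obese mice, against 114, 146, 108 and 94.3 CPM in those of lean mice. Obese tumours lay close together and above all lean tumours, and the gene rose by 0.79 ± 0.15 (edgeR adjusted p = 0.00337). Eif4e2 (4EHP), a cap-binding relative that does not bind eIF4G and represses its targets, had 195, 178, 187 and 189 CPM in tumours of obese mice, against 151, 135, 136 and 134 CPM in those of lean mice. It rose by 0.43 ± 0.09 (edgeR adjusted p = 0.00581), with an adjusted p of 0.0803 with upper-quartile and 0.0507 with library-size scaling (range over the alternatives 0.000296 to 0.0803). The third relative, Eif4e3, averaged 48.9 ± 9.64 against 21.05 ± 4.58 CPM (SD, n = 4 each; log2 change 1.22 ± 0.22, edgeR adjusted p = 0.00276). Eif4e1b, known from oocytes, had 6 counts in all tumours together and was not tested.

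Of the eIF4A helicases, Eif4a1 had 399, 326, 344 and 387 CPM in tumours of obese mice, against 235, 285, 208 and 209 CPM in those of lean mice. It was higher in every tumour of an obese mouse (0.64 ± 0.14, edgeR adjusted p = 0.00608). Eif4a2, which is close in sequence, had 133, 219.7, 218 and 208 CPM in tumours of obese mice, against 209.8, 207, 175 and 194 CPM in those of lean mice. Obese replicate 1 was far below the other 7 tumours, which overlapped, and the log2 change was −0.01 ± 0.17 (edgeR adjusted p = 0.956). Eif4a3 is the core helicase of the exon junction complex, which marks spliced messages, and not a cap-complex subunit. It (ENSMUSG00000025580, chromosome 11, 119288363 to 119300089) had 209, 164, 233 and 172 CPM in tumours of obese mice, against 317, 316, 317 and 318 CPM in those of lean mice. The lean tumours differed by only a few CPM and all tumours of obese mice were below them, for a log2 change of −0.71 ± 0.13 (edgeR adjusted p = 0.00349). Eif4b, which stimulates eIF4A, rose to 1156 ± 233 CPM in tumours of obese mice against 528 ± 45.98 CPM in those of lean mice (1.13 ± 0.16, edgeR adjusted p = 0.00119), while Eif4h, of similar function, had a log2 change of −0.12 ± 0.10 (edgeR adjusted p = 0.341).

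The largest rise among all 58 genes was in an inhibitor of this step. Eif4ebp1 (ENSMUSG00000031490, chromosome 8, 27260329 to 27276674) encodes 4E-BP1, which holds eIF4E away from eIF4G until mTORC1 phosphorylates it. It had 189, 174, 106 and 148 CPM in tumours of obese mice, against 48.5, 29.3, 34.4 and 32.4 CPM in those of lean mice. The lowest tumour of an obese mouse, replicate 3, was above the highest lean tumour by a wide gap (log2 change 2.09 ± 0.23, edgeR adjusted p = 0.000408). Eif4enif1 (4E-T), which carries eIF4E into the nucleus and binds it in processing bodies, had 145, 149, 123 and 151 CPM in tumours of obese mice, against 75.1, 86.3, 73.7 and 72.5 CPM in those of lean mice, and rose by 0.89 ± 0.11 (edgeR adjusted p = 0.000698); Drg1 overlaps it on the opposite strand. Eif4ebp2 rose by 0.84 ± 0.15 (edgeR adjusted p = 0.00281). Eif4ebp3 had 14.8, 13.6, 13.3 and 15.4 CPM in tumours of obese mice, against 22.9, 19.3, 15.9 and 19.6 CPM in those of lean mice, and fell by 0.44 on the log2 scale (SE 0.16, edgeR adjusted p = 0.0427). That fall ended without obese replicates 1, 2, 3 or 4 or lean replicates 1, 2 or 4, left out singly (log2 change −0.47 to −0.35, adjusted p 0.057 to 0.141), without the filter on low counts and with limma-voom quality weights, and with GC and length offsets the log2 change was 0.10 (adjusted p 0.686, the highest of 0.00903 to 0.686).

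**Figure D3:**
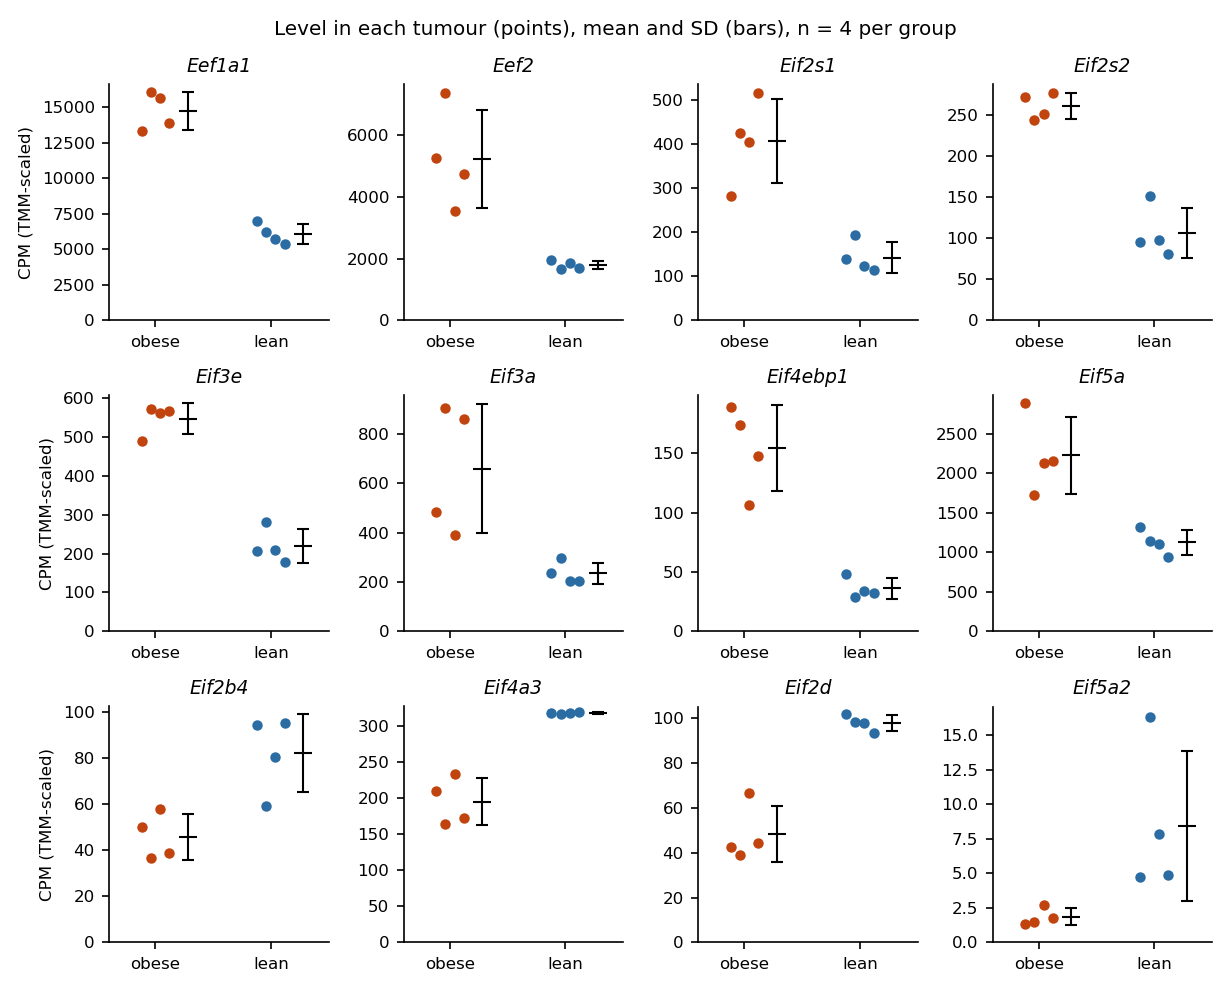
TMM-scaled counts per 1 M counts (CPM) of 12 genes in each tumour (points; obese left of lean), with the group mean and SD (bars, n = 4 tumours per group), every axis starting at 0. The 8 genes of the upper rows lie higher in all tumours of obese mice, and Eif2b4, Eif4a3, Eif2d and Eif5a2 lie lower in all of them.

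At subunit joining and just after it, 4 of 5 genes rose and 1 fell, against 30.9% and 28.4% of all tested genes. The median log2 change of the 5 genes was 1.05. Eif5a, whose hypusine-modified protein helps the ribosome past difficult peptide bonds, was the most abundant. It had 2885, 1725, 2131 and 2156 CPM in tumours of obese mice, against 1325, 1147, 1107 and 937 CPM in those of lean mice. The groups did not overlap (0.98 ± 0.18, edgeR adjusted p = 0.00354). Eif5a2, its paralog on chromosome 3 (ENSMUSG00000050192, chromosome 3, 28781276 to 28798846), which is amplified in some human cancers, went the other way. It had 1.36, 1.5, 2.73 and 1.8 CPM in tumours of obese mice, against 4.74, 16.3, 7.85 and 4.88 CPM in those of lean mice. Its levels were low, lean replicate 2 stood above the rest, and the log2 change was −2.19 ± 0.49 (edgeR adjusted p = 0.00668). Eif5, the GTPase activator of eIF2, and Eif5b, the GTPase that joins the subunits, rose by 1.07 ± 0.23 and 1.05 ± 0.19. Eif6, which keeps free large subunits from joining, averaged 289.8 ± 108 against 127 ± 24.6 CPM and rose by 1.19 ± 0.26 (edgeR adjusted p = 0.00617), with obese replicate 1 at 451 CPM against 233 to 242 CPM in the other 3 tumours of obese mice.

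Eef1a1 (ENSMUSG00000037742, chromosome 9, 78478449 to 78489151), for the factor that delivers aminoacyl-tRNAs, was the most abundant gene of the family, at 5901 against 2438 CPM per kb of exon in tumours of obese and lean mice. It had 13316, 16044, 15598 and 13890.1 CPM in tumours of obese mice, against 6984, 6210.2, 5754 and 5359 CPM in those of lean mice. The lowest tumour of an obese mouse was far above the highest lean tumour, and the log2 change was 1.28 ± 0.14 (edgeR adjusted p = 0.000403). The gene has processed pseudogenes of near-identical sequence, and reads that they share may have been left uncounted. Among the subunits of eEF1B, which recharges eEF1A with GTP, Eef1g rose by 1.23 ± 0.18, Eef1b2 by 0.61 ± 0.12 and Eef1d by 0.60 ± 0.11. Eef1e1, in fact a subunit of the multi-tRNA-synthetase complex (AIMP3), rose by 0.88 ± 0.16. In the eEF1 group 5 of 6 genes rose and 0 fell, against 30.9% and 28.4% of all tested genes. The group's median log2 change was 0.74.

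The sixth gene, Eef1a2 (ENSMUSG00000016349, chromosome 2, 181147653 to 181157014), is the paralog that replaces Eef1a1 in adult skeletal muscle, heart and neurons. It had 0, 1.15, 2.75 and 0.96 CPM in tumours of obese mice, against 17.9, 0.249, 1.17 and 16.5 CPM in those of lean mice, from raw counts of 0, 70, 142 and 40 in obese replicates 1 to 4 and 727, 13, 60 and 930 in lean replicates 1 to 4. Only lean replicates 1 and 4 were high, and the other 6 tumours overlapped. The log2 change was −2.86 ± 1.5 and did not pass (edgeR adjusted p = 0.128); without lean replicates 1 and 4 it was 0.71. The summed level of the skeletal muscle genes Acta1, Ckm, Myh4 and Tnnt3 was 1.49, 25.3, 156 and 43.7 CPM in obese replicates 1 to 4, against 1064, 15.9, 77.6 and 1013 CPM in lean replicates 1 to 4. The order of the tumours by Eef1a2 was nearly that by these muscle genes, a description over 8 tumours whose values share a library; the part of muscle RNA in the level of Eef1a2 was not tested beyond this.

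**Figure D4:**
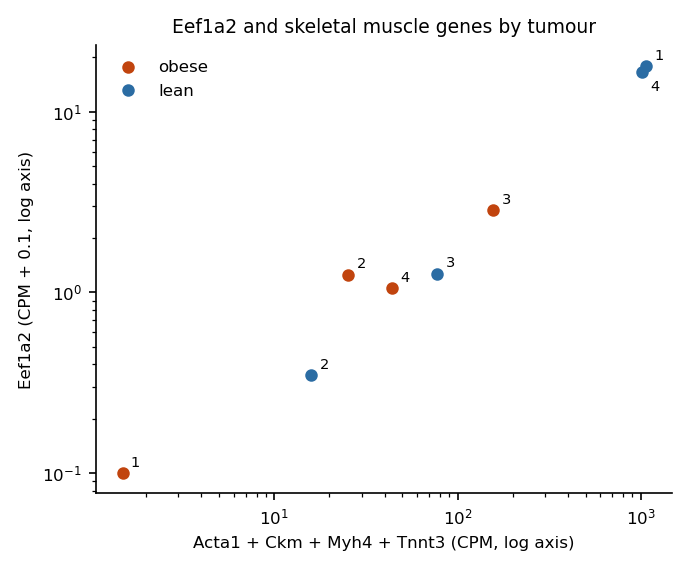
Eef1a2 (CPM + 0.1, log axis) against the summed level of Acta1, Ckm, Myh4 and Tnnt3 (CPM, log axis) in the 8 tumours, with replicate numbers beside the points and colour for obese and lean. Lean replicates 1 and 4, at 17.9 and 16.5 CPM of Eef1a2, also have the highest muscle sums, 1064 and 1013 CPM.

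Eef2 (ENSMUSG00000034994, chromosome 10, 81176631 to 81182498), the translocase, was second in level at 1569.6 against 539 CPM per kb of exon in tumours of obese and lean mice. It had 5264, 7346, 3532 and 4728 CPM in tumours of obese mice, against 1959, 1674, 1844 and 1694 CPM in those of lean mice. The lean tumours lay close together and the tumours of obese mice spread widely above them, replicate 3 being lowest (1.54 ± 0.22, edgeR adjusted p = 0.00116). Of the 5 tested genes for eEF2 and for enzymes that modify the elongation factors, Eef2 alone rose and Eef1akmt3 alone fell, with a median log2 change of −0.06. By comparison, 59.2% of all tested genes were called, 30.9% as rises and 28.4% as falls, so this number called is not above that background. Eef2k, the kinase that inactivates eEF2, had a log2 change of 0.45 ± 0.21 (edgeR adjusted p = 0.0945), and the methyltransferase genes Eef2kmt and Eef1akmt2 by −0.07 and −0.06. Eef1akmt3, a lysine methyltransferase of eEF1A, had 0.372, 0.231, 0.367 and 0.192 CPM in tumours of obese mice, against 1.1, 0.498, 0.898 and 1.08 CPM in those of lean mice. It was lower in all tumours of obese mice (−1.63 ± 0.40, edgeR adjusted p = 0.0102), but with 228 counts in all and the more abundant Mettl1 on its opposite strand. Eef1akmt1 had 0 counts in every tumour.

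Ratios of related genes within a tumour do not depend on how libraries are scaled. For 7 pairs the log2 ratio of counts was compared by an exact two-sided permutation test, whose smallest possible p with 4 against 4 tumours is 0.0286. Eif4a1 over Eif4a2 was 1.59, 0.57, 0.66 and 0.90 in tumours of obese mice, against 0.16, 0.46, 0.24 and 0.11 in those of lean mice, a difference of 0.68. Eif5a over Eif5a2 was 11.03, 10.16, 9.61 and 10.22 in tumours of obese mice, against 8.12, 6.13, 7.14 and 7.58 in those of lean mice, a difference of 3.01. Both ratios were higher in every tumour of an obese mouse. Eif4g1 over Eif4g3 was 2.29, 1.76, 1.76 and 1.98 in tumours of obese mice, against 1.64, 1.52, 1.33 and 1.07 in those of lean mice, again without overlap (difference 0.56). Eif4e over its inhibitor Eif4ebp1 was 0.12, 0.08, 0.87 and 0.56 in tumours of obese mice, against 1.24, 2.31, 1.66 and 1.54 in those of lean mice, lower in every tumour of an obese mouse (difference −1.28). Each of these 4 pairs had an exact p of 0.0286 and, adjusted over the 7 pairs, 0.05, which is not under the threshold. The other 3 pairs overlapped between groups: Eef1a1 over Eef1a2 differed by 3.89 (exact p = 0.171, adjusted 0.2), Eif4e over Eif4e2 by 0.38 (exact p = 0.114, adjusted 0.16) and Eif1 over Eif1b by 0.16 (exact p = 0.286, adjusted 0.286). The size for Eef1a1 over Eef1a2 depends on the 0.5 added to each count, since Eef1a2 had 0 counts in obese replicate 1: the difference was 3.12 with 5 added and 2.40 without that tumour.

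**Figure D5:**
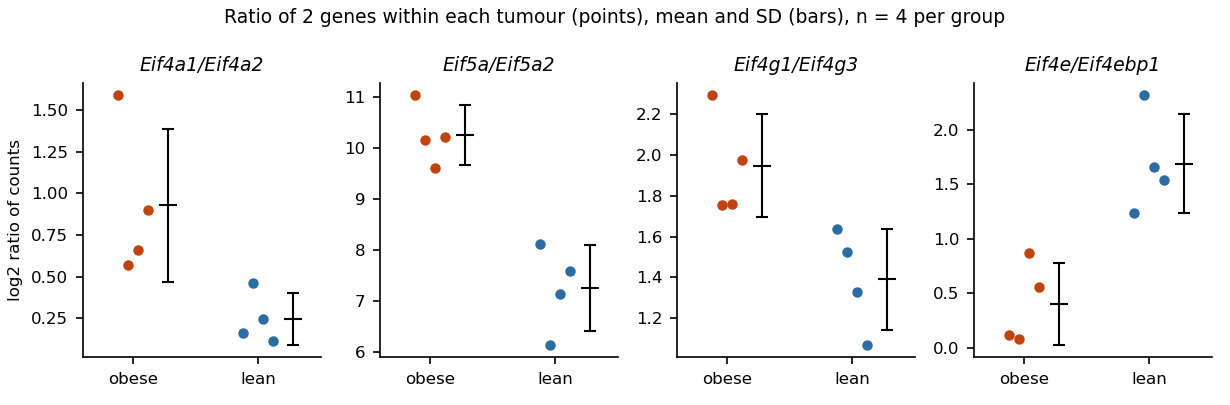
The log2 ratio of counts of 2 genes in each tumour (points; obese left of lean), with the group mean and SD (bars, n = 4 tumours per group). The 3 paralog ratios are higher in all tumours of obese mice and the ratio of Eif4e to Eif4ebp1 is lower in all of them.

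Of the 63 genes, 10 were listed here as TOP mRNAs known from human cells: Eef1a1, Eef1b2, Eef1d, Eef1g, Eef2, Eif3a, Eif3e, Eif3f, Eif3h and Eif4b. The list may not be complete. All 10 rose with no overlap between groups, by a median log2 change of 1.18 and 6 of them at least 2-fold. Over all tested genes 30.9% rose, 28.9% were higher without overlap and 17.2% rose at least 2-fold. Of the 48 other tested factor genes 29 rose, 6 fell and 13 did not pass, with a median of 0.49. The difference between the 10 genes and these 48, which may hold further TOP mRNAs, was not tested. The start of a transcript is shown for the 6 of these 10 genes in the RefSeq table and for 5 others, since the tract at the cap defines the class. The sequences are RefSeq's, on GRCm38.p6, from 10 bases before the annotated start to 20 bases into the transcript, 5′ to 3′ on the coding strand, and capitals mark runs of C and T.

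Eef1a1 (chr9:78481705-78481734, minus strand): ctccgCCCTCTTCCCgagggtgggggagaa
Eef2 (chr10:81176621-81176650, plus strand): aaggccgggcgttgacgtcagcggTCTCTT
Eif3f (chr7:108934405-108934434, plus strand): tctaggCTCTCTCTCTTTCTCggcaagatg
Eef1b2 (chr1:63176821-63176850, plus strand): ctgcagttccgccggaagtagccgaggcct
Eif3a (chr19:60790674-60790703, minus strand): ctcgggcggcggcgctgccgccgcgaggga
Eif4b (chr15:102073763-102073792, plus strand): tcccgtcggacgccgcgccaccccctcgcg
Eif3l (chr15:79075213-79075242, plus strand): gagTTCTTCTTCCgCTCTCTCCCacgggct
Eif2s3x (chrX:94212632-94212661, minus strand): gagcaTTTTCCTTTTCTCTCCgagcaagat
Eif4a3 (chr11:119300024-119300053, minus strand): cgccttacatccggttcccgccgcggcttg
Eif2d (chr1:131153197-131153226, plus strand): gttccgggccagcatcagggctagggccgg
Eif2s1 (chr12:78862062-78862091, plus strand): ggttgggcgaagcgcacgctgaggagcttc

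Of the 6 TOP-list genes, Eef1a1, Eef2 and Eif3f hold a run of at least 8 pyrimidines that overlaps this window, and Eef1b2, Eif3a and Eif4b, which rose too, hold none. The run of Eef1a1 begins 5 bases and that of Eif3f 4 bases before the annotated start, and that of Eef2 at base 15 of the transcript. Whether any of these runs is the tract at the cap was not tested. Of the genes shown from outside the TOP list, Eif3l and Eif2s3x, which rose, hold such a run, and Eif2s1, which rose, and Eif4a3 and Eif2d, which fell, hold none. RefSeq promoters, 250 bases before to 50 after a start, were at hand for 47 of the 63 genes. Such a run, on the coding strand, was found in 14 of the 47 (29.8%), against 20.2% of 11440 tested genes with a promoter. Of the 14, 10 rose, 0 fell, 3 did not pass and 1 was not tested; of the genes without a run 18 rose, 4 fell, 10 did not pass and 1 was not tested. The median log2 change was 0.54 with a run and 0.60 without one, so genes with a run overlapping the window did not have the higher median. Such a run need not lie at the annotated start, so this is no comparison of genes with and without a tract at the cap. A run is a description of the letters and not a test of TOP control, and annotated starts can lie some bases from those used in these tumours.

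The hexamer CACGTG, the same on both strands and known as the E-box that Myc binds, was found in the promoters of 12 of the 47 genes (25.5%), against 11.2% of 11440 tested genes and 8.09% of 27025 genes with a promoter. The windows that follow show it in capitals with its flanks in genes of several steps: translocation, cap binding, scaffold, helicase, eIF3 and both eIF5A paralogs, of which Eif5a2 fell.

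Eef2 (chr10:81176571-81176610, plus strand): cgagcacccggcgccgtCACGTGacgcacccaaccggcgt
Eif4e (chr3:138527023-138527062, plus strand): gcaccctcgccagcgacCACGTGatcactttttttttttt
Eif4e (chr3:138527187-138527226, plus strand): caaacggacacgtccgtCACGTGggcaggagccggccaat
Eif4g1 (chr16:20672656-20672695, plus strand): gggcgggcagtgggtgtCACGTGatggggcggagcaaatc
Eif4a1 (chr11:69672590-69672629, minus strand): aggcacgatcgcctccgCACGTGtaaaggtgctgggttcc
Eif3f (chr7:108934330-108934369, plus strand): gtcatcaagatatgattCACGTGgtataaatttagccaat
Eif5a (chr11:69920786-69920825, minus strand): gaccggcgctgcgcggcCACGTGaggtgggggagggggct
Eif5a2 (chr3:28781118-28781157, plus strand): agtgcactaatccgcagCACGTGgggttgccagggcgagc

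The hexamer of Eef2 starts 43 bases before the annotated start, that of Eif4g1 54, that of Eif3f 68 and the nearer one of Eif4e 64 bases before it. Of the 12 genes with the hexamer 8 rose, 1 fell and 3 did not pass, with a median log2 change of 0.62. Of the genes without it 20 rose, 3 fell, 10 did not pass and 2 were not tested, with a median of 0.54. Over all tested genes 30.9% rose and 28.4% fell. A link between the hexamer and the rises was not tested. No binding of a factor was measured.

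Other genes of the pathway were counted from fixed lists. Of 6 genes for eIF2α kinases and phosphatase regulators 4 rose and 0 fell: Ppp1r15a (GADD34), the stress-induced subunit that takes the phosphate off eIF2α, averaged 84.1 ± 21.2 against 21.3 ± 5.32 CPM (SD, n = 4 each; log2 change 1.98 ± 0.24, edgeR adjusted p = 0.000634), and the RNA-sensing kinase gene Eif2ak2 and the constitutive regulator gene Ppp1r15b rose by 0.86 ± 0.15 and 0.68 ± 0.12. Of 11 poly(A)-binding and scanning cofactors 5 rose and 0 fell. Pabpc1, the main cytoplasmic poly(A)-binding protein and itself a TOP mRNA in human cells, averaged 3027 ± 642 against 792 ± 59.2 CPM (1.93 ± 0.18, edgeR adjusted p = 0.00027). Its relative Pabpc4 averaged 125 ± 38.1 against 23.3 ± 1.95 CPM (2.42 ± 0.24, edgeR adjusted p = 0.000303), and Abce1, which splits ribosomes after termination, rose by 1.40 ± 0.21. The 3 termination factor genes Etf1, Gspt1 and Gspt2 rose by 0.63, 0.66 and 1.10. Among all tested genes 30.9% rose and 28.4% fell.

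The 13 genes of mTORC1 and its translation branch were mixed: 2 rose, 3 fell and 8 did not pass, with a median log2 change of −0.12, against 30.9% that rose and 28.4% that fell among all tested genes (59.2% in either direction). Larp1, which binds TOP mRNAs at the cap, averaged 413 ± 105 against 151 ± 9.45 CPM (1.45 ± 0.20, edgeR adjusted p = 0.000957), and the kinase gene Mtor rose by 0.99 ± 0.19 (edgeR adjusted p = 0.00388). Mknk1 and Mknk2, the kinases that phosphorylate eIF4E, had log2 changes of −0.91 ± 0.12 (edgeR adjusted p = 0.000907) and −0.59 ± 0.11 (edgeR adjusted p = 0.00408), both called as falls. Of 9 genes for hypusine and diphthamide, the modifications that eIF5A and eEF2 carry, 2 rose and 2 fell, which is also to be read against those shares. The genes for both hypusine enzymes, Dhps and Dohh, had log2 changes of 0.21 and −0.08 and did not pass; of the diphthamide genes Dph5 and Dph6 rose by 0.69 and 0.65, and Dph7 and Dph3 had called falls of −1.17 and −0.73. Protein levels and phosphorylation were not measured.

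Within the groups, each tumour's rank differed between genes. Lean replicate 4 was the highest of the 4 lean tumours in 12.1% of the 58 tested genes and the lowest in 50%, against 24.6% and 24.4% of all tested genes. Lean replicate 1 was highest in 43.1% and lowest in 8.62%, against 24.8% and 23% of all tested genes. Among tumours of obese mice, replicate 3 was highest in 22.4% of the factor genes and lowest in 34.5%, against 36.3% and 26% of all tested genes, and replicate 1 was highest in 32.8% and lowest in 24.1%, against 20.1% and 34.4%. Obese replicate 2 was highest in 24.1% and lowest in 32.8%, against 27.5% and 26%. For obese replicate 4 these were 20.7% and 8.62%, against 16.2% and 13.6%. Lean replicate 2 had 34.5% and 27.6%, against 38.8% and 40.7%, and lean replicate 3 had 10.3% and 13.8%, against 11.8% and 11.9%. Lean replicates 3 and 4 and obese replicates 2 and 3 were thus more often lowest in the factor genes than in all genes. Lean replicate 1 and obese replicates 1 and 4 were more often highest. This is a description with no test. On the first principal component of the 58 genes (69.1% of variance) tumours of obese mice had 5.64, 3.54, 1.35 and 3.69, against −4.33, −1.38, −3.11 and −5.40 in tumours of lean mice, so that here obese replicate 3 kept to the side of its group.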

How the data were processed

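Total RNA of whole tumours was sequenced from stranded TruSeq libraries, per the labels' protocols. The authors deposited raw counts, the number of reads assigned to each Ensembl mouse gene in each tumour, without normalization. The submitters' processing notes list STAR 2.5.2b, cutadapt 1.12, HTSeq, bcl2fastq 2.18.0.12 and CASAVA 1.8, with mm10 as the build. The strand setting and the annotation used in counting are not given in the sources used here. Of the 50143 gene IDs, 49326 had a symbol in GENCODE M21 (GRCm38, coordinates from 1), 30886 had 0 counts in all libraries, and 37 mitochondrial genes had a total of 0.

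Groups came from the labels, which name separate tumours but no batch, date or pairing, and replicate numbers follow accession order. The labels do not number the animals, so p-values measure the spread between these tumours. Genes were kept by edgeR's filterByExpr (minimum count 10, minimum total 15), scaled by TMM and compared by a robust, two-sided quasi-likelihood fit in edgeR (glmQLFTest), with Benjamini-Hochberg adjustment over 14887 genes and a threshold of 0.05. Log2 changes are obese minus lean, and the SE is the log2 change divided by the root of its F value. CPM use TMM-scaled library sizes, and ± in CPM is the SD over 4 tumours. Total counts were 25.7 to 66.7 M per library; a count of 0 allows up to 3 counts, or 0.0450 to 0.117 CPM, which covers counting error only. Pair ratios used counts plus 0.5 and an exact permutation of the tumours between groups.

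Per-tumour values are given for the 8 largest rises and falls without overlap between the groups, the most abundant gene of each role, and both genes of each pair; Eif3b was added after its values were seen. Of the pathway lists, up to 3 genes with the smallest p are named, and further genes named there were chosen after their values were seen. The genes studied, the lists and the tests were chosen with earlier results of these data known. Alternatives were other scaling factors, filters, limma-voom, DESeq2, GC and length offsets (from GENCODE transcripts), a pseudocount of 5 and leaving out each tumour. The test steps were checked on simulated counts. Promoters are from a RefSeq table (GRCm38.p6), which held 47 of the 63 genes. Software was limma 3.58.1, DESeq2 1.42.0 and edgeR 4.0.16 under R 4.3.3.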

Additional observations from a re-analysis of the deposited data

Results flagged for a closer look

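In 130 groups of 4 tumours (58 genes and 7 pair ratios, each in tumours of obese and of lean mice), 9 held a tumour set apart from the other 3 by a Dixon test, a rule that chance meets in about 5% of groups. Obese replicate 1 stood apart in 5 genes: it was highest for Eif4h (485 CPM, others 428 to 433), Eif3i (468, others 345 to 355) and Eif6 (451, others 233 to 242), and lowest for Eif4a2 (133, others 208 to 219.7) and Eif3e (489, others 559.8 to 571). Lean replicate 1 was highest for Eif4e2 (151 CPM, others 134 to 136) and Eef1b2 (972, others 769 to 803). Lean replicate 2 was highest for Eif4g2 (1049 CPM, others 717 to 733). The log2 ratio of Eif4e to Eif4e2 was highest in obese replicate 4 at 0.20, with 0.05 to 0.07 in the other 3 tumours of obese mice.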

How the results depend on the processing

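Over 17 alternatives, 32 of the 39 genes that rose and 5 of the 6 that fell stayed past the threshold in every alternative with a value; Eif2s3x, Eif2b3, Eif2b5, Eif3k, Eif3m, Eif4g2, Eif4e2 and Eif4ebp3 did not, as given above, and Eif4ebp3 turned to 0.10 with GC and length offsets. Rises numbered 32 to 41 and falls 5 to 9 over all 17. Leaving out each tumour in turn gave 34 to 39 rises, 5 to 6 falls and 7143 to 9833 called genes, against 8819. Without lean replicates 1 and 4, chosen after the data were seen, 5131 genes were called, of which 25 factor genes rose and 3 fell; fewer tumours were compared there, and no other cause was tested. Upper-quartile scaling moved the median of all genes by −0.21 and the share of higher calls from 52.1% to 41.2% (factor genes 86.7% to 78%), and library size alone moved it by −0.19, with 42.3% and 78.6%; the factor genes' median stayed 0.58 to 0.80 above that of all genes in the 17 alternatives. Genes that passed only in some alternatives were Eif1ax in 8, Eif3b and Eif2b2 in 3 each, Eef2k and Eif4h in 2 each, and Eif4a2 and Eef1a2 in 1 each. With 3 against 4 tumours the smallest exact p is 0.0571, so the ratio tests cannot pass the threshold with a tumour left out. No paired analysis was possible because the labels give no replicate numbers that pair tumours of obese and lean mice. With 4 tumours per group, genes of low count such as Eef1akmt3 and Eif5a2 carry wide errors.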

Other observations

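Mitochondria have translation factors of their own, encoded in the nucleus, which none of the results above include. Of 9 such genes 4 rose, 1 fell and 4 did not pass, with a median log2 change of 0.30; among all tested genes 59.2% were called, 30.9% as rises and 28.4% as falls, so the number called is near that background. Gfm1, the mitochondrial elongation factor G1, averaged 118 ± 19.9 against 58.99 ± 8.35 CPM and rose (edgeR adjusted p = 0.00185), Mtif2, the initiation factor that binds formylmethionyl-tRNA, rose by 0.76 ± 0.14 and Tsfm, the exchange factor of mitochondrial EF-Tu, by 0.71 ± 0.17. Mtif3, which proofreads initiation complexes, had a called fall of −0.73 ± 0.19 (edgeR adjusted p = 0.0127). The mitochondrially encoded messages that these factors serve had no counts in the deposited table.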
